A study of Mus musculus with 11 samples.

Results

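Apelin and its receptor are 2 of the 26921 genes listed for mouse brain cortex cells, and both were read by name from the count tables of all 11 libraries. Apln encodes the peptide ligand apelin and lies on the minus strand of chrX:48025146-48034853 (GRCm38/mm10, GENCODE M21). Aplnr encodes the apelin receptor and lies on the plus strand of chr2:85136225-85139923. The annotation has no other gene overlapping either of them. Levels in endothelial cells (ECs), the cells lining blood vessels, and detection of ligand and receptor in the same cell were compared between postnatal day 10 (P10), adult and 18-month-old mice and mice with experimental autoimmune encephalomyelitis (EAE).

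Apelin is made as a longer precursor that proteases cut into secreted peptides, and its receptor is a G protein-coupled receptor of vascular and cardiac cells. In growing vascular beds apelin is known as a product of sprouting endothelial tip cells, and the receptor as a marker of veins and of the capillaries from which vessels sprout. Apela, a further peptide, acts on the same receptor and was not analysed here.

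The libraries were made from myelin-depleted cerebral cortex of C57BL/6 mice, which the study's methods give as female, with the 10x 3′ v2 droplet assay, which tags every captured transcript with a barcode of its own (a unique molecular identifier, UMI). The groups were 4 Juvenile libraries (P10, untreated, 6 mice pooled), 3 Adult libraries (7–11 weeks, untreated, 6 mice pooled), 2 Aged libraries (18 months, untreated, 3 mice pooled) and 2 EAE libraries (7–11 weeks at immunization with MOG peptide in Complete Freund's Adjuvant plus pertussis toxin, taken at the peak of disease, 3 mice pooled). The Adult controls received neither adjuvant nor toxin, so an effect of these agents and of the disease cannot be told apart. Myelin depletion removes most neurons and oligodendrocytes, and the cell types left are those that survived dissociation.

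Libraries held 15755504 to 34326349 UMIs, and 50625 of 54646 barcodes passed the filters. ECs were 21132 of these cells, and all 9 of their marker genes were higher in them than in the other cells in 11 of 11 libraries. Since EC clusters were named by these markers, this is a description and no separate check. Any pair of libraries had 10 to 113 cell barcodes in common. EC counts of Adult 2 and Adult 3 differed with a chi-square of 1.40 per degree of freedom, against 30.5 and 31.2 for either of them and Adult 1, and these libraries were summed into 1 unit (Adult n = 2, 10 units in all). The Juvenile libraries also formed close pairs, at 2.57 for Juvenile 1 and 2 and 2.37 for Juvenile 3 and 4 against 12.2 to 14.6 between the pairs, and the pairs of Aged and EAE libraries lay at 2.58 and 1.95. These were kept as separate libraries (Juvenile n = 4), and the labels do not say whether the libraries of a pair share a preparation. Adult 1 stood apart, with the summed level of the choroid plexus markers at 52574 UMIs per 1000000 in its ECs against 3911 to 21504 in the other libraries. Without Adult 1 the log2 differences from Adult ECs were 6.70 for Apln and 4.12 for Aplnr in Juvenile, −0.44 and −4.08 in Aged and 1.79 and −6.55 in EAE ECs (edgeR), with every call of the 2 genes on the same side of the threshold as with it. Nothing in the labels says that libraries of a group came from separate preparations, so p-values measure the spread between libraries, which may be technical.

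Apln was high in P10 ECs and near the limit of detection in adult and aged ECs, and it was detected at a low level in EAE. Levels are given in UMIs of the gene per 1000000 UMIs of the ECs (CPM). In the Juvenile libraries 1 to 4 Apln stood at 180.5, 216.3, 240.1 and 214.0 CPM (212.8 ± 24.5, SD, n = 4). In Adult 1, 2 and 3 it stood at 1.09, 2.12 and 2.12 CPM, from 4, 16 and 16 UMIs (1.60 ± 0.729, SD, n = 2 units). In Aged 1 and 2 it stood at 1.26 and 1.85 CPM, from 10 and 15 UMIs, of which 7 in Aged 1 and 11 in Aged 2 were in a single cell. The EAE libraries lay between these levels and the juvenile ones, with 8.35 CPM from 93 UMIs in EAE 1 and 4.68 CPM from 51 UMIs in EAE 2. Adult and Aged values overlapped, whereas the lowest EAE library was above the highest Adult library and the lowest Juvenile library was above both.

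Apln was 6.88 higher in Juvenile than in Adult ECs on the log2 scale (SE 0.29, adjusted p = 4.2e-08, edgeR quasi-likelihood test) and ranked 22 from the top of 13708 genes. With the close Juvenile pairs summed (n = 2 units) it was 6.94 higher (SE 0.31, adjusted p = 2.0e-06, edgeR). In this contrast 43.6% of the genes tested passed the threshold (21.2% higher and 22.4% lower). No difference passed the test between Aged and Adult ECs (log2 difference −0.27, SE 0.50, adjusted p = 0.79), where 5.56% of genes passed (2.38% higher and 3.18% lower). In EAE Apln was 1.96 higher than in Adult ECs (SE 0.36, adjusted p = 0.0031), and 28% of genes passed there (15.8% higher and 12.2% lower). The EAE call was lost after each cell was thinned to 1500 UMIs, where the log2 difference was 1.19 (adjusted p = 0.16). The 3 contrasts share the same Adult libraries.

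Aplnr was also highest at P10, and it was lower in both Aged and EAE ECs than in Adult ECs. Juvenile ECs held 409.2, 424.0, 444.5 and 424.8 CPM of Aplnr (425.6 ± 14.5, SD, n = 4). Adult 1, 2 and 3 held 12.8, 24.5 and 26.4 CPM, from 47, 185 and 200 UMIs (19.1 ± 8.99, SD, n = 2 units). Aged ECs held 1.51 and 1.48 CPM, from 12 UMIs in each library. The EAE libraries were lowest, with 2 UMIs in the 3653 ECs of EAE 1 (0.180 CPM, 95% exact Poisson interval 0.0217 to 0.649) and 3 UMIs in the 3524 ECs of EAE 2 (0.275 CPM, 0.0568 to 0.805). Intervals cover counting error only. No 2 groups overlapped for Aplnr.

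The receptor was 4.43 higher in Juvenile than in Adult ECs on the log2 scale (SE 0.21, adjusted p = 5.5e-08, edgeR) and ranked 107 from the top, and with the Juvenile pairs summed it was 4.48 higher (SE 0.25, adjusted p = 6.5e-06, edgeR). In Aged ECs Aplnr fell by 3.78 (SE 0.32, adjusted p = 0.00025, edgeR), which placed it 30 from the bottom of 13708 genes. In EAE ECs Aplnr fell by 6.24 (SE 0.42, adjusted p = 2.3e-06, edgeR), 7 from the bottom. The EAE fold rests on 5 UMIs, so its size and its SE depend on how such small counts are modelled. The SE comes from the F statistic and is no measure of counting error. As plain counts the pooled EAE level was 0.00987 of the pooled Adult level, with an exact interval of 0.00319 to 0.0232 for counting error.

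**Figure D1:**
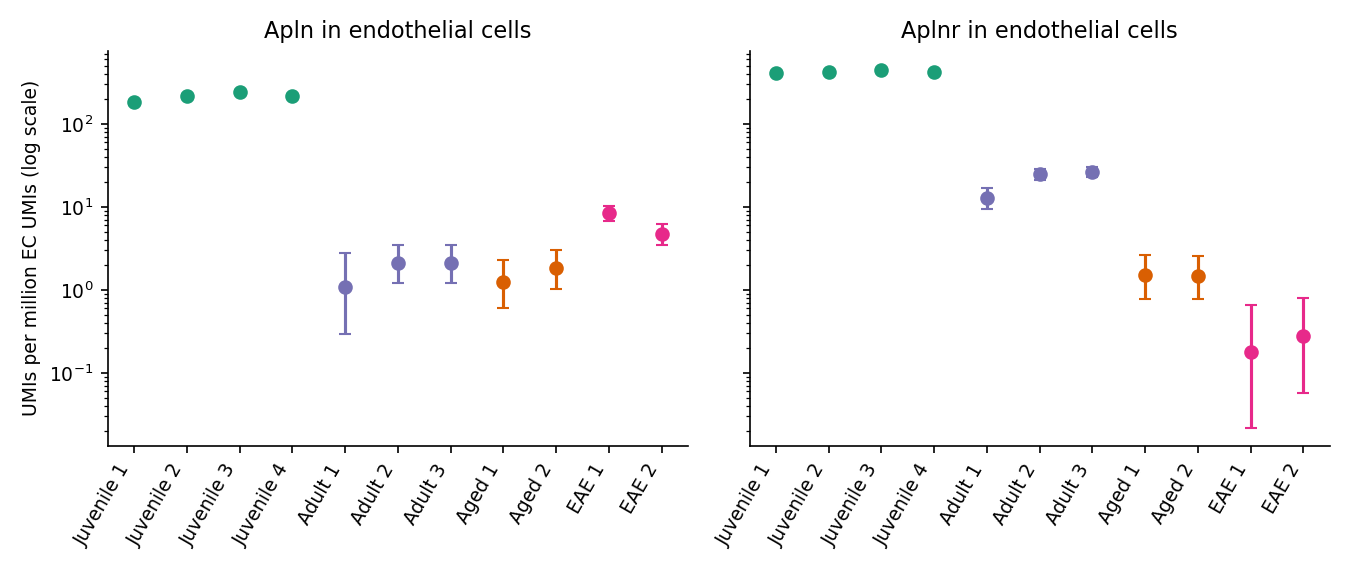
Apln (left) and Aplnr (right) in the ECs of each library, in UMIs per 1000000 EC UMIs on a log axis, with points for libraries and bars for 95% exact Poisson intervals of counting error. Apln lies at 180.5 to 240.1 in Juvenile, 1.09 to 2.12 in Adult, 1.26 to 1.85 in Aged and 4.68 to 8.35 in EAE libraries, while Aplnr steps down from 409.2 to 444.5 in Juvenile to 0.180 and 0.275 in EAE.

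ECs of the groups also differed in UMIs per cell, which bears on the share of cells in which a gene is seen. Median UMIs per EC were 5022 to 8321 in Juvenile, 2936 to 3690 in Adult, 2251 and 2430 in Aged and 2329 and 2394 in EAE libraries. Apln was seen in 32.3% to 42% of Juvenile ECs, in 0.466% to 0.738% of Adult, 0.135% and 0.142% of Aged and 0.738% and 0.821% of EAE ECs. Aplnr was seen in 63.8% to 70.9% of Juvenile, 4.90% to 7.55% of Adult, 0.169% and 0.283% of Aged and 0.0548% and 0.0851% of EAE ECs. Microglia, the brain's resident macrophages, served as cells that should lack both transcripts. In P10 microglia Apln was seen in 0.871% to 1.15% and Aplnr in 1.38% to 2.29% of cells at median depths of 2518 to 3316 UMIs. The P10 EC shares lay far above these. In Adult microglia (median depths 2109 to 3537 UMIs) Apln was seen in 0% to 0.258% and Aplnr in 0.258% to 0.366% of cells, below the Adult EC shares of each gene. In EAE microglia (median depths 3050 and 3187 UMIs) Aplnr was seen in 0% and 0.0705% of cells, so the share of EAE ECs with Aplnr was at the level of background. Apln was seen in 0% and 0.141% of the same microglia, below the EAE ECs. In Aged microglia (median depths 2689 and 3010 UMIs) Aplnr was seen in 0% to 0.320% of cells, a range that holds the Aged EC shares, and Apln in 0%. In Aged choroid plexus cells, which are deeper (median depths 5133 and 5847 UMIs), Apln was seen in 5 of 438 cells of Aged 1 (1.14%) and 0 of 407 of Aged 2. The Aged EC shares lay below the first and above the second.

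The number of UMIs in positive cells differed as well. A P10 EC with Apln held a median of 2 UMIs and at most 48, and one with Aplnr a median of 3 and at most 31. In Adult libraries 93.9% of the ECs with Apln and 81.7% of those with Aplnr held 1 UMI.

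Because P10 vessels contain cell states that adult vessels lack, the contrast was repeated inside a subtype present at every age, CapV ECs (capillary and postcapillary venular ECs). Juvenile ECs were subclustered apart from the other libraries, so juvenile CapV ECs come from subclusters led by Fgfbp1, Cxcl12, Abhd2 and Lrrc55, and the CapV ECs of other groups from subclusters led by Ndnf, Hbb-bs, Abhd2 and Ifit2. Neither gene was used to cluster cells or to name clusters. Subclusters below the threshold of every arterial, venous, tip, mitotic, fenestrated and inflammatory list were named by default. The default was CapV or CapA (arterial-side capillaries), whichever score was higher, with no minimum. Juvenile CapV ECs held 170.6, 206.8, 177.8 and 213.6 CPM of Apln against 1.19 and 2.02 CPM in the Adult units. The log2 difference was 6.83 (SE 0.21, adjusted p = 1.1e-11, edgeR), with 40.5% of 12223 genes past the threshold (20.8% higher and 19.7% lower). They held 354.1, 388.1, 400.8 and 386.4 CPM of Aplnr against 13.9 and 31.3 CPM in the Adult units. Here the log2 difference was 4.07 (SE 0.26, adjusted p = 5.8e-06, edgeR).

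Among the named P10 subtypes the ligand was highest in tip ECs, the cells that lead vessel sprouts, and the receptor in venous ECs in 3 of 4 libraries and in tip ECs in the other. Tip ECs, 268 cells over the 4 libraries, held 926.2, 793.8, 1218 and 898.2 CPM of Apln. CapV ECs held the values above, and mitotic ECs held 111.2, 146.0, 67.6 and 90.0 CPM. Venous ECs held 53.5, 100.7, 38.2 and 72.4 CPM. The ECs of arteries and of capillaries on the arterial side (Arterial/CapA) were lowest, with 2.75 to 7.78 CPM from 12 UMIs in 393 cells. Tip ECs lay above every other named subtype in each library, and CapV lay above mitotic and venous ECs in each library. Mitotic ECs lay above venous ECs in each library too, although the ranges of both overlapped. An unnamed subcluster of 110 cells led by mt-Nd3 and mt-Nd1, mitochondrial genes, with medians of 1439 to 1985 UMIs per cell, held 182.3 to 489.2 CPM of Apln and 425.1 to 767.0 CPM of Aplnr. Set against all other ECs of the same library, tip ECs had 2.89 more Apln on the log2 scale (SE 0.14, higher in 4 of 4 libraries). No p is given for contrasts of subtypes, because the subtypes were found in the same cells. In a finer clustering of ECs no Juvenile EC was named venous. All 323, 305, 724 and 710 venous-side ECs of Juvenile 1 to 4 were named CapV there. The P10 values of venous ECs, here and below, rest on the main clustering.

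Aplnr was spread more evenly over the venous side of the P10 vessel bed. Venous ECs held 692.9, 683.2, 818.4 and 694.7 CPM, and tip ECs held 553.8, 518.2, 625.8 and 713.9 CPM. Mitotic ECs held 439.6, 436.6, 512.1 and 537.0 CPM, above CapV ECs at 354.1 to 400.8 CPM. Arterial/CapA ECs held 4.67, 3.71, 3.02 and 13.8 CPM, from 17 UMIs. Venous ECs lay above tip ECs in 3 of 4 libraries and tip above mitotic ECs in 4 of 4, although the ranges of these neighbours overlapped, and CapV lay below all of these. The log2 difference of tip to all other P10 ECs was 0.63 for Aplnr (SE 0.07, higher in 4 of 4 libraries). Venous and CapV ECs together had 6.20 more Aplnr (SE 0.17) and 5.19 more Apln (SE 0.20) than Arterial/CapA ECs, in 4 of 4 libraries each. These SEs come from the fit and understate the spread between libraries. The SD of the 4 library differences, on log2(CPM + 1), was 0.883 for Aplnr and 0.755 for Apln.

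**Figure D2:**
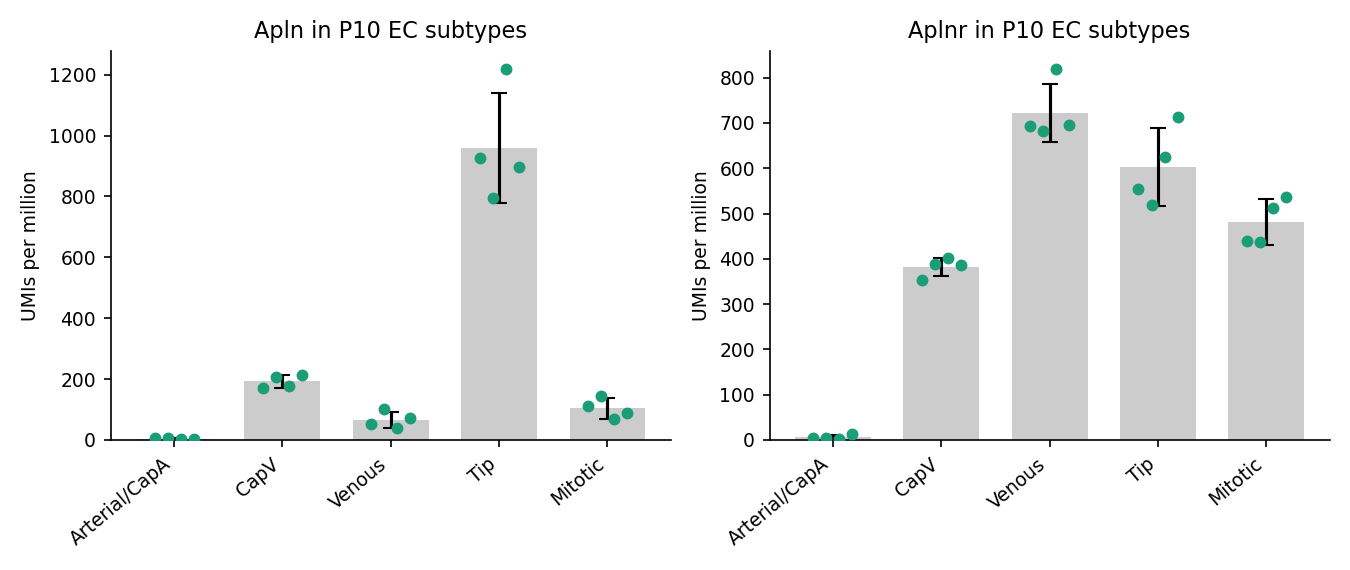
Apln (left) and Aplnr (right) in the EC subtypes of the P10 libraries, in UMIs per 1000000 UMIs of the subtype, with points for the 4 libraries, bars for their mean and error bars for the SD. Apln is at 793.8 to 1218 in Tip and at most 213.6 in the other subtypes shown, and Aplnr is at 354.1 or more in every subtype shown but Arterial/CapA, where both genes are at 13.8 or less.

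In adult mice the receptor was higher on the venous side, although at a much lower level than at P10. Adult CapV ECs held 13.9, 27.9 and 34.5 CPM of Aplnr in libraries 1 to 3, and Adult venous ECs 10.6, 37.9 and 38.7 CPM. CapA ECs (arterial-side capillaries) held 3.08, 7.23 and 4.71 CPM and arterial ECs 0, 2.13 and 1.90 CPM. CapV and venous values overlapped, and both lay above CapA and arterial ECs in each library. Venous and CapV ECs together held 13.5 and 32.7 CPM in the Adult units, against 2.81 and 4.99 CPM in CapA and arterial ECs together. In Aged libraries the venous side held 12 UMIs in each and the arterial side none, and in EAE libraries it held 2 and 3 UMIs and the arterial side none, too few in EAE to place the receptor.

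In the main clustering all UMIs of the receptor in the ECs of Aged mice were in venous ECs. The 12 Aplnr UMIs of Aged 1 ECs were in 5 of its 157 venous ECs (15.6 CPM), and the 12 of Aged 2 ECs were in 8 of its 152 venous ECs (14.6 CPM). These were 3.18% and 5.26% of the cells, against 0% to 0.320% of Aged microglia. After thinning to 1500 UMIs the shares were 0.676% to 0.680%, from 2 cells in all, against 0% of Aged microglia. None was found in the 3764 Aged CapV ECs, which held Aplnr at 0.330 CPM or less when 0 UMIs are set at a floor of 3. With the floor taken over the group, Aplnr was there at least 41.95-fold lower than in the CapV ECs of Adult 1 (13.9 CPM) and at least 94.7-fold lower than in those of Adult 2 and 3 (31.3 CPM). With 1 Aged library left out these bounds fell to at least 20.8-fold and at least 46.9-fold. They rest on the main clustering, where CapV ECs were 1937 of 2094 venous-side ECs in Aged 1 and 1827 of 1979 in Aged 2. In a finer clustering of ECs they were 2048 of 2093 and 1946 of 1989. The Aged Aplnr UMIs were not placed in the finer subtypes. The Aged values in venous ECs lay between those of the Adult units, at 10.6 and 38.2 CPM. The pooled Aged level there was 0.395 of that in Adult 2 and 3 (exact interval 0.240 to 0.627, counting error only) but 1.43 times that in Adult 1, which rests on 3 UMIs (0.433 to 7.40), so the direction of this difference turned with the Adult unit. In EAE, 2 UMIs were found in the CapV ECs of EAE 1 and 3 in the venous ECs of EAE 2, and none in CapA or arterial ECs of either library. The 594 venous ECs of EAE held a pooled level of 0.0197 of that in Adult 2 and 3 (exact interval 0.00398 to 0.0595) and 0.0711 of that in Adult 1 (0.00953 to 0.531).

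The Apln UMIs of EAE ECs were not spread over the subtypes. Most were in a subcluster that the naming rules left without a subtype name. It is called by its leading genes, Tubb6, a tubulin, and Angpt2, a ligand of the Tie2 receptor found in remodelling vessels. This subcluster was singled out after its Apln values were seen. It held 804 of the 7177 EAE ECs, against 88 of 5039 Adult and 111 of 5787 Aged ECs. In EAE 1 it held 82 of 93 and in EAE 2 35 of 51 Apln UMIs, which came from 19 of 30 and 17 of 26 cells with Apln. Its Apln level in EAE was 63.7 and 28.7 CPM, against a pooled 1.38 CPM in all other EAE ECs. The few cells of this subcluster in Adult libraries held Apln at a pooled 20.7 CPM (6 UMIs, 3 of them in a single cell). Those in Aged libraries held 35.4 CPM (10 UMIs, 7 of them in a single cell). This subcluster held no Aplnr UMI in EAE or Aged libraries and 16 in Adult libraries, at 37.6 and 65.6 CPM in the Adult units. In each Adult unit this level lay above those of venous (10.6 and 38.2 CPM) and CapV ECs (13.9 and 31.3 CPM). It rests on 4 UMIs in Adult 1, 9 in Adult 2 (6 of them in a single cell) and 3 in Adult 3. In Adult 3 taken alone the level lay below those of its venous and CapV ECs. Its 88 Adult cells included 2 with UMIs of both genes. With this subcluster left out, the log2 difference of Apln between EAE and Adult ECs was −0.045 (SE 0.54, adjusted p = 0.97, edgeR), and that of Aplnr was −6.06. Since the subcluster was singled out by its Apln UMIs, the value for Apln says where these UMIs lay and is no test of the difference.

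Of 10 tip cell markers 8 were higher in this subcluster than in other ECs in both EAE libraries and 1 was lower in both. Among the higher ones were Adm, the vasodilator peptide adrenomedullin, at 1061 and 1136 CPM against 295.7 and 333.6 CPM in other ECs, and Plaur, the urokinase receptor, at 1029 and 1086 CPM against 147.1 and 150.8 CPM. Esm1, another of these markers, was at 0.777 and 0 CPM in it. Of 5 markers of inflammatory ECs 4 were also higher in this subcluster in both EAE libraries and 0 were lower in both. Ctla2a stood at 20415 and 18801 CPM against 3977 and 4006 CPM in other ECs. Socs3 was higher in EAE 1 (180.3 against 172.6 CPM) and lower in EAE 2 (146.0 against 179.7 CPM). Since these cells were grouped by such genes, the values are a description.

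**Figure D3:**
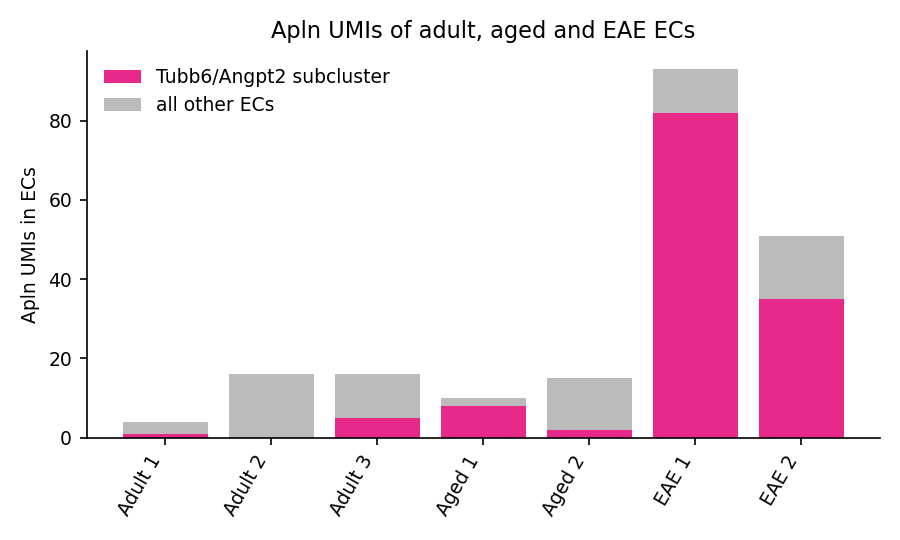
Apln UMIs in the ECs of each Adult, Aged and EAE library, with the bar split into UMIs of the Tubb6/Angpt2 subcluster and of all other ECs. The subcluster holds 82 of 93 UMIs in EAE 1 and 35 of 51 in EAE 2, and 0 to 8 UMIs in the other libraries.

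Ligand and receptor were detected together in P10 ECs and almost never afterwards. At full depth 163 of 546, 188 of 512, 285 of 1042 and 267 of 1029 Juvenile ECs held at least 1 UMI of each gene, that is 29.9%, 36.7%, 27.4% and 25.9%. In Adult libraries 0 of 858, 1 of 2034 and 3 of 2147 ECs did. No EC held both among 2965 and 2822 Aged cells or among 3653 and 3524 EAE cells. With 0 set at the floor of 3 cells, the share with UMIs of both would be 0.101% and 0.106% in the Aged and 0.0821% and 0.0851% in the EAE libraries, and this limits cells with UMIs, not cells that express both genes. The product of the separate shares of each gene gives 0.0180 cells with both over all Aged and 0.0390 over all EAE ECs, so co-detection was not measurable there at this depth. At P10 both genes were seen in no microglia, but in 0.376% to 1.11% of astrocytes, 0% to 0.591% of choroid plexus cells and 0% to 2.31% of neurons.

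After thinning to 1500 UMIs per cell, with 39 Juvenile and 296 Adult ECs below that depth left out, 5.88%, 8.64%, 7.95% and 8.15% of Juvenile ECs held both genes, and 0 of 794, 1938 and 2011 Adult ECs. The mean was 7.66% (SD 1.22, n = 4) against 0 (n = 2 units), and the exact two-sided permutation test gave p = 0.0667, the smallest value that 4 against 2 units allow. The product of the separate shares gives 0.530 thinned Adult ECs with both genes in all (2.26 at full depth, where 4 were seen), so this comparison follows from how often each gene alone was seen. With the Juvenile pairs summed the mean was 7.63% and the exact permutation test gave p = 0.333, the smallest that 2 against 2 units allow. Thinned shares of Aged and EAE ECs with both genes were 0 of 2507, 2505, 3171 and 3071 cells. The product of the separate thinned shares in Juvenile libraries was 5.47%, 7.14%, 7.03% and 6.40%, below the measured share in each library. After thinning to 1000 UMIs this held in 3 of 4 libraries and turned in Juvenile 2, where 2.94% held both genes against a product of 3.64%. Aplnr was seen in 40.5%, 47.3%, 44.3% and 47.1% of thinned Juvenile ECs with Apln, against 37.2%, 37.3%, 38.1% and 34.9% of those without.

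Within subtypes the share with both genes was not above the product throughout. In thinned tip ECs 28.0% to 37.7% of cells held both genes, below products of 30.0% to 41.3% in each library, and at full depth 76.0% to 87.4% did. In CapV ECs 4.80% to 8.52% held both, against products of 5.43% to 7.84% and above them in 3 of 4 libraries, and in venous ECs 2.22% to 4.88%, against products of 2.96% to 5.35% and above them in 1 of 4 libraries. In mitotic ECs 2.60% to 12% held both, against products of 3.75% to 10.0% and above them in 2 of 4 libraries. No thinned Arterial/CapA EC held both. Of the named subtypes tip ECs were the one in which ligand and receptor were most often found together in every Juvenile library.

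**Figure D4:**
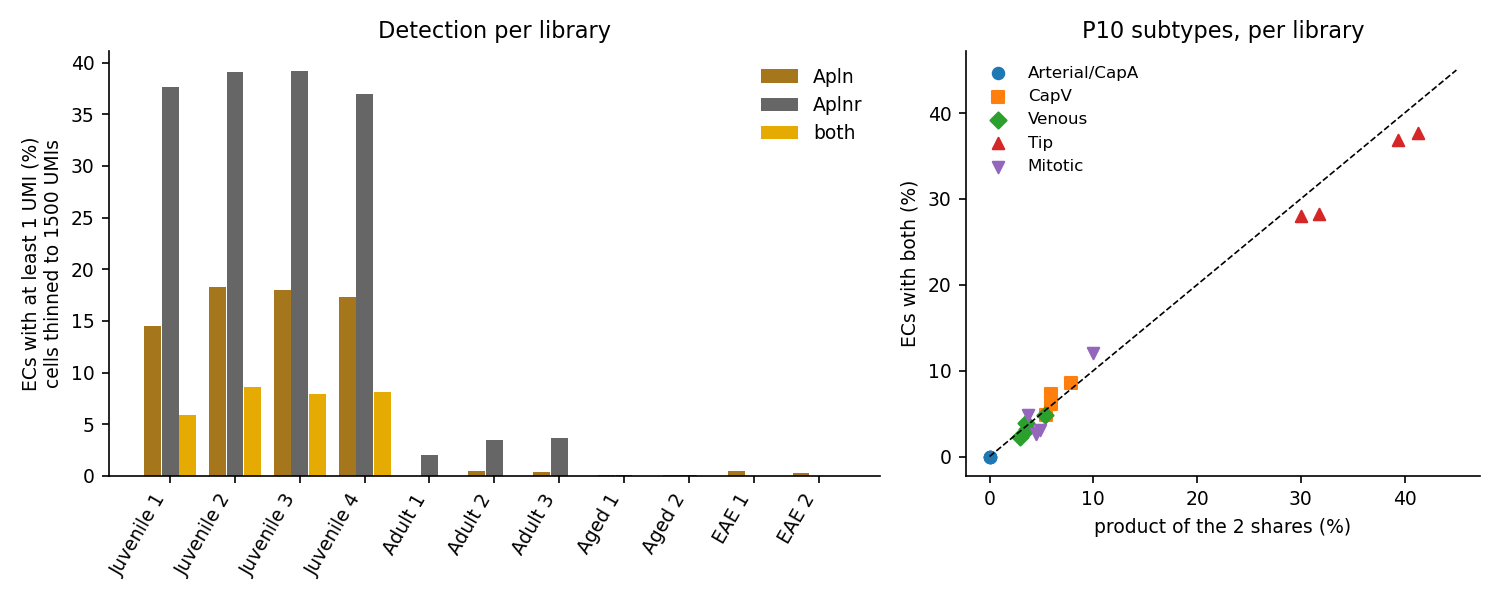
Left, percent of ECs in each library with at least 1 UMI of Apln, of Aplnr or of both after thinning to 1500 UMIs. Right, percent of P10 ECs with both genes against the product of the separate shares, with a point for each subtype and library and a dashed line where they are equal. Shares with both genes are 5.88% to 8.64% in Juvenile libraries and 0 elsewhere, and Tip points lie at 28.0% to 37.7%, below the line.

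Outside the endothelium the receptor was lower than in ECs of P10 and adult mice, while the ligand was also found in astrocytes and adult oligodendrocytes. Astrocytes held 19.3 to 45.1 CPM of Apln in Juvenile, 84.8 to 144.5 in Adult, 57.1 and 56.3 in Aged and 79.6 and 41.9 in EAE libraries, from 4 to 47 UMIs per library. Adult oligodendrocytes, the myelin-forming cells, held 20.5, 49.1 and 41.5 CPM, from 38 UMIs in 164 cells. Juvenile neurons held 12.1 to 15.7 CPM and Juvenile microglia 2.88 to 4.32 CPM.

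The cells that carried most of the ligand's transcripts differed between groups. ECs held 89.2% to 95.4% of the Apln UMIs in Juvenile libraries, 8.51%, 33.3% and 43.2% in Adult 1 to 3, 26.3% and 38.5% in Aged and 79.5% and 85.0% in EAE libraries. Astrocytes held 1.03% to 2.56% in Juvenile, 68.1%, 18.8% and 16.2% in Adult, 52.6% and 53.8% in Aged and 6.84% and 6.67% in EAE libraries. Oligodendrocytes held 8.51%, 41.7% and 37.8% in Adult 1 to 3, the largest share in Adult 2, and 0% to 5.13% in the other libraries. These shares also move with the number of each cell type captured, such as 114 astrocytes in Adult 1 and 20 and 18 in Adult 2 and 3. Within the Adult, Aged and EAE EC sums the 6 astrocyte markers, all detected, added up to 80.6 to 184.2 CPM, highest in Adult 1. In Juvenile ECs they added up to 199.3 to 218.9 CPM. The 6 oligodendrocyte markers added up to 114.9 to 181.0 CPM in Adult, 24.5 and 29.5 in Aged and 5.21 and 6.15 in EAE ECs, with 1 of 6 at 0 in each EAE library. Their part in the few Apln UMIs of Adult ECs was not tested.

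**Figure D5:**
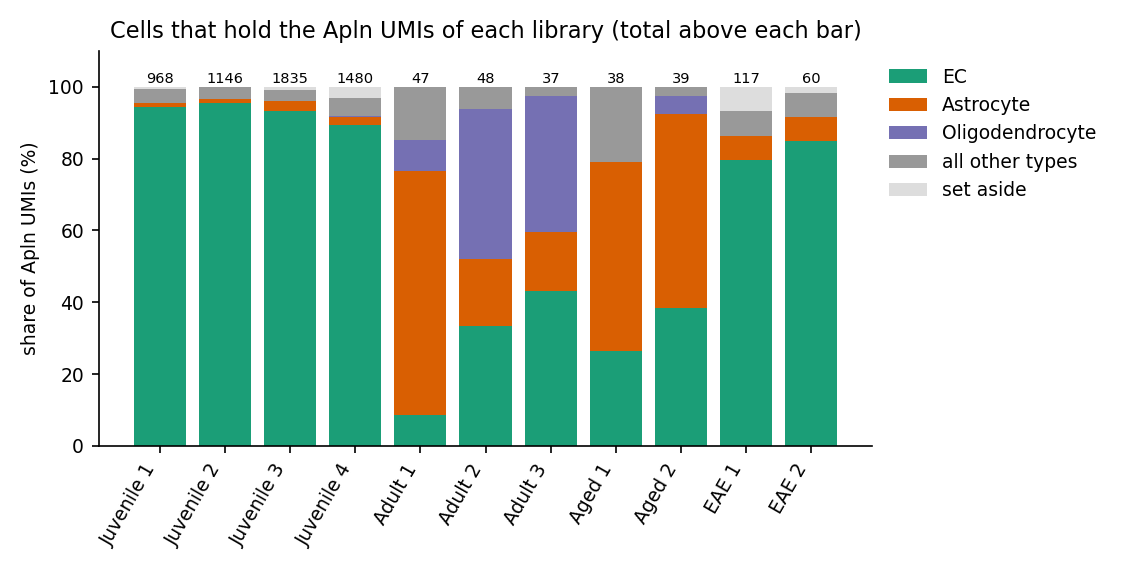
Share of the Apln UMIs of each library (percent, total above each bar) that lay in ECs, in astrocytes, in oligodendrocytes, in all other cell types and in cells set aside. ECs hold 89.2% to 95.4% in Juvenile and 79.5% and 85.0% in EAE libraries but at most 43.2% in Adult and Aged libraries.

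Most Aplnr UMIs lay in ECs in every library. They held 92.3% to 96.0% of its UMIs in Juvenile, 81.0%, 95.9% and 91.3% in Adult libraries, and 12 of 15, 12 of 14, 2 of 3 and 3 of 4 UMIs in Aged 1, Aged 2, EAE 1 and EAE 2. Over the 10 units ECs had 5.12 more Aplnr than all other cells on the log2 scale (SE 0.40, higher in 10 of 10, which in EAE rests on 2 and 3 UMIs in ECs against 1 and 1 in other cells). For Apln this difference was 2.89 (SE 1.005, higher in 6 of 10). Juvenile astrocytes held 9.63 to 21.1 CPM of Aplnr and Juvenile neurons 8.89 to 34.8 CPM, and Adult and EAE astrocytes held none. Juvenile mural cells of the vessel wall held 3.91 to 50.6 CPM and perivascular macrophages 7.37 to 32.0 CPM. Juvenile microglia, taken above as background, held 5.62 to 6.76 CPM.

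Genes placed around apelin signalling were counted in the same contrasts of all ECs. Of a list of proteases chosen for a possible part in cutting apelin or its precursor, 3 passed the filter on low counts. Whether each of them acts on apelin was not tested. Pcsk5, a proprotein convertase, was higher in Juvenile ECs (4.38 to 19.2 against 1.36 to 4.43 CPM, log2 difference 1.61, SE 0.57, adjusted p = 0.043, edgeR) and fell by 2.83 in EAE (0.367 to 0.449 CPM, SE 0.86, adjusted p = 0.036, edgeR). Furin, a convertase of the secretory pathway, was higher in EAE (85.9 to 104.0 against 59.5 to 66.0 CPM, log2 difference 0.77, SE 0.12, adjusted p = 0.00065, edgeR). Mme, which degrades apelin peptides, and Pcsk6 did not pass the filter. In Aged ECs, where 5.56% of all genes passed, none of the 3 did, with edgeR, at an unadjusted p under 0.05 or with DESeq2.

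All 11 G proteins, kinases, arrestins and regulators that act with such receptors could be tested. In Juvenile ECs 4 were higher and 1 lower (21.2% and 22.4% of all genes), with a list median of 0.09 on the log2 scale against −0.04 over all genes. Gnai1, an inhibitory G protein alpha subunit, was 1.83 higher at P10 (SE 0.19, adjusted p = 1.3e-05, edgeR). It fell by 2.24 in Aged ECs (SE 0.29, adjusted p = 0.0012, edgeR) and by 0.75 in EAE ECs (SE 0.24, adjusted p = 0.033, edgeR), at 15.8 to 20 CPM in Juvenile, 4.70 to 5.70 in Adult, 1.0 to 1.11 in Aged and 2.33 to 2.94 in EAE units. In Aged ECs it was the 1 gene of the list to pass in edgeR (3.18% of all genes were lower), while Gnai2 also passed as lower in DESeq2. The EAE call of Gnai1 was lost in DESeq2, where 2 genes of the list were higher and 0 lower. In edgeR 2 were higher and 1 lower in EAE (15.8% and 12.2% of all genes). Gnai2, a far more abundant relative, was higher both at P10 (0.51, SE 0.13, adjusted p = 0.0073, edgeR) and in EAE (0.46, SE 0.15, adjusted p = 0.034, edgeR). Gna13, a G protein alpha subunit, was 1.16 higher in EAE (SE 0.13, adjusted p = 4.6e-05, edgeR).

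Of 9 endothelial genes placed downstream of the receptor 8 could be tested. At P10 2 were higher and 4 lower (21.2% and 22.4% of all genes), with a list median of −0.69. The arterial connexin genes Gja4 (158.5 to 253.6 against 19.6 to 34.4 CPM) and Gja5 (10.5 to 25.5 against 5.16 to 6.02 CPM) were 2.79 and 1.72 higher (adjusted p = 0.00013 and 0.0012, edgeR). Klf2 and Klf4, transcription factors induced by blood flow, fell by 1.27 and 1.25 (adjusted p = 1.1e-06 and 1.2e-05, edgeR), and Slc2a1, the glucose transporter of the blood-brain barrier, fell by 1.40 (adjusted p = 1.4e-05, edgeR). None of the 8 passed in Aged ECs with edgeR, where 5.56% of all genes did, while Klf2 passed at an unadjusted p under 0.05 and in DESeq2 (1 gene each). In EAE 1 was higher and 2 lower (15.8% and 12.2% of all genes), and DESeq2 also called Gja4 lower. Gja5 fell by 1.30 (1.74 to 2.33 against 5.16 to 6.02 CPM, SE 0.41, adjusted p = 0.035, edgeR). Nos3, the endothelial nitric oxide synthase, fell by 0.69 (55.4 to 62.9 against 101.04 to 114.6 CPM, SE 0.14, adjusted p = 0.0044, edgeR), and Slc2a1 was 1.20 higher (SE 0.18, adjusted p = 0.00055, edgeR).

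Of 16 genes known from tip cells 15 could be tested. At P10 10 of them were higher in ECs, with a list median of 0.999, against 21.2% of all genes. None was lower in edgeR, at an unadjusted p under 0.05 or in DESeq2. Trp53i11 was at 84.6 to 106.4 CPM against 7.61 to 8.54 CPM in Adult ECs (log2 difference 3.61, SE 0.15, adjusted p = 8.2e-09, edgeR). Cxcr4, a chemokine receptor of sprouting vessels, was at 35.5 to 56.6 CPM against 1.90 to 3.84 CPM (3.83, SE 0.27, adjusted p = 7.2e-07, edgeR). In Aged ECs 1 of 15 was higher in edgeR (2 in DESeq2) against 2.38% of all genes, namely Angpt2, at 26.9 and 30.7 CPM against 10.8 and 14.4 CPM (1.26, SE 0.18, adjusted p = 0.0022, edgeR). In EAE 7 of 15 were higher and 3 lower (15.8% and 12.2% of all genes), with a list median of 0.61. Angpt2 stood at 117.8 and 117.9 CPM (3.48, SE 0.17, adjusted p = 1.1e-07, edgeR) and Adm at 384.1 and 423.4 CPM (3.10, SE 0.34, adjusted p = 0.00032, edgeR). Kdr, the main receptor of vascular endothelial growth factor (VEGF), fell by 0.83 there (SE 0.14, adjusted p = 0.0010, edgeR), as did Cd34 and Lxn by 0.53 and 0.51 (adjusted p = 0.036 and 0.015, edgeR). Markers of some immune cells were also higher in the EAE EC sums. The 6 neutrophil markers added up to 190.2 and 237.6 CPM in EAE against 34.0 to 42.2 in Adult ECs (201.4 and 261.1 in Aged ECs), with Ly6g at 0 in both EAE libraries. The 6 monocyte and macrophage markers found, of 7, added up to 1294 and 1283 against 689.2 to 726.3 CPM, and the 7 T cell markers to 22.0 and 18.5 against 1.98 to 8.69 CPM, with none at 0 in EAE. The 5 natural killer cell markers added up to 19.2 and 13.5 against 4.37 to 5.43 CPM. Markers of perivascular macrophages were lower (21.1 and 23.1 against 40.3 to 111.4 CPM). So were those of microglia (76.8 and 73.9 against 78.3 to 265.1) and dendritic cells (46.0 and 42.9 against 48.0 to 51.9). B cell markers overlapped. The monocyte and macrophage markers stood at 950.3 to 1006 CPM in Juvenile ECs. The part of immune cells in the EAE values of the gene lists was not tested.

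Of 8 genes of hypoxia and VEGF signalling 7 could be tested. At P10 1 was higher (Hif1a, 0.52) and 3 lower, against 21.2% and 22.4% of all genes. In Aged ECs 2 were higher and 1 lower, against 2.38% and 3.18% of all genes: the oxygen-regulated factor Hif1a by 0.62 (SE 0.11, adjusted p = 0.0081, edgeR), Bnip3, a mitochondrial protein induced by hypoxia, by 0.93 (SE 0.17, adjusted p = 0.010, edgeR), and Nrp1, a VEGF co-receptor, which fell by 0.46 (SE 0.12, adjusted p = 0.046, edgeR). In EAE 5 were higher and 1 lower (15.8% and 12.2% of all genes), with a list median of 0.59. Bnip3 was at 353.9 and 374.1 CPM against 52.6 and 71.7 CPM in Adult ECs (2.76, SE 0.17, adjusted p = 7.3e-07, edgeR) and Ankrd37, another hypoxia-induced gene, at 416.7 and 432.6 against 50.2 and 63.4 CPM (3.06, SE 0.63, adjusted p = 0.011, edgeR). Nrp1 fell by 1.41 (SE 0.12, adjusted p = 6.8e-06, edgeR).

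The genes whose levels followed the 2 members most closely were taken over 53 sums of an EC subtype in a unit, as Pearson's r of log2(CPM + 10) over 6245 genes. For Apln these were Prr5, a part of mTOR complexes (r = 0.935), Fscn1, an actin-bundling protein of filopodia (0.929), Dcbld1 (0.928), Eif2s2, a translation initiation factor (0.913), and Arhgap18, a GTPase-activating protein (0.906). Aplnr ranked 31 for its ligand, with r = 0.854. For Aplnr they were Cmtm3 (0.952), the polarity gene Pard6g (0.948), the N-cadherin gene Cdh2 (0.932), the non-muscle myosin gene Myh10 (0.932) and again Fscn1 (0.929). Sums of the same library share its depth and preparation, and Juvenile sums differ from the others in many genes, so the values of r are a description.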

How the data were processed

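The 11 libraries are 10x 3′ v2 libraries of cells from myelin-depleted cortex, and groups were taken from the labels. The submitters' processing notes name bcl2fastq 2.19.1.403, UMI-tools 0.5.3, STAR 2.5.3a, featureCounts 1.6.1 and mm10. The authors deposited raw counts of UMIs per gene and barcode, without normalization and before filters on cells. Whether counting used strand is not given in the sources used here.

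Cells were kept where over 500 but below 6000 genes were detected and mitochondrial UMIs made up less than 25%. Clusters (Seurat 5.3.0 in R 4.3.3, log-normalized counts, 2000 variable genes, 12 components, resolution 0.5, with Apln and Aplnr left out) were named from marker lists, and 320 cells of no clear class were set aside. Doublets found by Scrublet (818 cells, 1.62%, and 0.407% of ECs; scanpy 1.11.5 in Python 3.11.15) stayed in unless stated. UMIs were summed over the ECs of each library, with Adult 2 and Adult 3 as 1 unit, and tested in edgeR 4.0.16 (robust quasi-likelihood fit, TMM factors, filter by filterByExpr, Benjamini-Hochberg over all genes tested, called at an adjusted p of 0.05) in a fit of all groups. The fit was tested on simulated data. CPM are counts per 1000000 UMIs of the cells summed. Contrasts within libraries had the unit as a block. The SE of an edgeR difference is the absolute log2 difference over the square root of the test's F statistic. It is not an SE of the library values. Shares of cells with a UMI were taken at full depth and after thinning to 1500 UMIs, and compared by an exact permutation test over units (SciPy 1.17.1). Intervals are exact at 95% and cover counting error only, and a count of 0 was set at a floor of 3 counts. Alternatives were DESeq2 1.42.0, other normalization and filters, thinning, doublets and a marker gate for ECs. Further ones were a finer clustering of ECs, libraries kept separate, a replicate block and each library left out.

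The members and the gene lists were chosen with earlier results of these data known. Named genes are both members, examples of the lists, and the 5 genes most like each member. Same-numbered libraries were checked for pairing, and the correlation of their deviations from group means was −0.171 to 0.0951, so the numbers do not pair them. No column belonged to another series.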

Additional observations from a re-analysis of the deposited data

Results flagged for a closer look

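In 18 groups of 4 Juvenile values of a member, a library far from the others was searched for, which chance gives in about 1 in 20 groups, and 2 were found. In venous ECs of P10 mice Aplnr was at 818.4 CPM in Juvenile 3, while the other libraries lay between 683.2 and 694.7 CPM, so the gap to the nearest was 0.915 of the whole range. In Arterial/CapA ECs of P10 mice Aplnr was at 13.8 CPM in Juvenile 4, from 10 UMIs, against 3.02 CPM in the lowest library and 4.67 CPM in the next highest, a gap of 0.847 of the range.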

How the results depend on the processing

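Of 346 values recomputed under alternatives 331 kept their direction and their side of the threshold, or moved by less than the spread between units. The higher Apln in EAE ECs lost its call after thinning to 1500 UMIs, with a log2 difference of 1.19 (adjusted p = 0.16, edgeR). The cause was not tested. Without the Tubb6/Angpt2 subcluster, left out after seeing that it held most of the Apln UMIs, the difference was −0.045, which follows from that choice. Without the subcluster led by Gas7 and Fam81a, also chosen after seeing the data, Apln in Aged against Adult ECs was −1.07 (adjusted p = 0.35, edgeR), so its call did not change. Leaving out each library kept Apln in EAE ECs at 1.504 to 2.33 and Aplnr there at −6.55 to −5.95, Aplnr in Aged ECs at −4.08 to −3.69, and at P10 Apln at 6.70 to 7.00 and Aplnr at 4.12 to 4.51, all called. The difference of Apln between venous and arterial sides at P10 was 6.46 after thinning. The share of ECs with both genes at P10 was 7.66% with p = 0.0286 (exact permutation test) when the 11 libraries were kept separate, where the pair of near-identical Adult libraries counts as 2.

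The number of genes called, which sets the background shares, moved more. For Juvenile against Adult it was 5970, and 3804 after thinning. For Aged against Adult it was 762, and 1737 without a filter on low counts, 1345 with 11 separate libraries and 89 in a fit of the groups compared alone. Leaving out each library gave 91 to 961 genes for Aged and 1738 to 3890 for EAE (3834 with all), with 91 without Aged 1, 111 without Aged 2, 421 without EAE 1 and 423 without EAE 2 for Aged, and 1738 without EAE 1 and 1764 without EAE 2 for EAE. With the replicate block, fitted over 11 separate libraries although the numbers do not pair them, 1284 genes were called for Aged, Apln in EAE was 2.08 and Aplnr in EAE was −6.22, and it changed no call of either gene.

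Depth limits the receptor in EAE, which rests on 5 UMIs in 7177 ECs, and the ligand in Adult ECs, on 36 UMIs in 5039. Co-detection in Aged and EAE ECs could not be measured. Cell subtypes were rebuilt from the counts, and the authors' own names of cells were not used here.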
